A study of Mus musculus with 8 samples.

Results

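The Toll-like receptor and inflammasome genes described here are a fixed list of 34 genes: 11 Toll-like receptors (TLRs), the TLR co-receptors Cd14 and Ly96, 6 adaptors and kinases that carry the TLR signal, 5 inflammasome sensors, the NOD receptors Nod1 and Nod2, 4 genes of the inflammasome adaptor and its effectors, and 4 C-type lectin receptors. They were chosen by name and role, out of 45354 genes or unnamed features on the array. Of the 34 genes, 33 were matched to a probe and 32 were tested. No probe was matched to Clec7a, the beta-glucan receptor, and Ticam2, an adaptor of the TLR4 pathway, was not well above background on any array.

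The cells were adipose tissue derived mesenchymal stem cells (Ad-MSC), the adherent cells grown from collagenase-digested abdominal subcutaneous fat and passaged in plastic dishes before RNA was taken. All donors were male C57BL/6 mice that were 6 weeks old when feeding began. The 4 groups were a high-fat diet with 60% fat for 24 weeks (HF24), control chow for 24 weeks (C24), the same high-fat diet for 12 weeks (HF12) and chow for 12 weeks (C12), with 2 arrays each. The labels call the 24-week mice old and the 12-week mice young, and since all began at the same age, feeding time is also age at sampling. Total RNA was labelled with Cy3 and hybridised to 1-colour Agilent mouse arrays. The labels do not say whether the arrays of a group came from separate mice or cultures, so the p-values measure the spread between these arrays, and their number limits the precision.

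A level below is log2 of an array's processed intensity minus that array's 75th percentile, so 0 marks the 75th percentile and a difference of 1 is a doubling. Levels of different genes come from different probes and are not set against each other. A gene was called higher or lower in a comparison when its adjusted p in limma's moderated test, with Benjamini-Hochberg adjustment over all 29454 genes or features tested, was under 0.05. Arrays of the same group correlated at 0.9945 to 0.9977 over the 29454 genes or features tested, and arrays of different groups at 0.9545 to 0.9844. Between 57.4% and 62.3% of probes were well above background on the 24-week arrays, against 65.0% to 67.1% on the 12-week arrays. Feeding time coincided with the row of the slide, and diet with its columns, so position on the slide and group cannot be told apart.

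Toll-like receptors are membrane proteins that recognise conserved parts of microbes, lipids and proteins at the cell surface and nucleic acids inside endosomes, and signal through the adaptors MyD88 and TRIF to NF-kB and interferon regulatory factors. Inflammasomes are cytosolic complexes in which a sensor, usually through the adaptor ASC, activates caspase-1, which matures interleukin-1 beta and interleukin-18 and cleaves gasdermin D into a pore-forming fragment. The C-type lectin receptors of this list bind sugars and glycolipids of fungi and mycobacteria and signal through the kinase Syk to Card9, those of Clec4n, Clec4e and Clec4d through the ITAM chain Fcer1g and that of Clec7a through a motif of its own. In fat, these genes are best known from macrophages, and some of them, Tlr4 among them, are expressed by adipocytes and stromal cells as well.

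Promoter windows were available from RefSeq (build GRCm38.p6) for 27 of the 34 genes, as 36 windows that run 250 bases before to 50 bases after an annotated start. Both strands were searched for the letters GAGGAAGT, a form of the site of the myeloid factor PU.1, for GGANTTTCC (NF-kB), for GAAANNGAA (core of an interferon-stimulated response element) and for TGANTCA (AP-1). The PU.1 letters were in 5 of the 36 windows (13.9%), against 3.20% of 32851 windows of all genes. They were in windows of Aim2, Nlrp1b, Pycard, Tlr1 and Tlr9. The NF-kB letters were in 3 windows (8.33%), those of Myd88, Nlrp3 and Tlr3, against 1.25% of all windows. The interferon letters were in 5 windows (13.9%), of Clec4d, Irak3, Myd88, Tlr6 and Tlr8, against 8.56% of all windows, and those of AP-1 in 1 window (2.78%), that of Tlr9, against 7.81%. A match describes letters only and shows no binding. The first 3 windows below belong to genes that carried the PU.1 letters and were higher by over 2 on the log2 scale in HF12 than in C12 cells, and the other two to genes that carried the NF-kB letters and were called in none of the comparisons. Each runs 5′ to 3′ along its gene, and capitals mark the PU.1, NF-kB and interferon letters.
Aim2 promoter, chr1:173420354-173420653 (plus strand): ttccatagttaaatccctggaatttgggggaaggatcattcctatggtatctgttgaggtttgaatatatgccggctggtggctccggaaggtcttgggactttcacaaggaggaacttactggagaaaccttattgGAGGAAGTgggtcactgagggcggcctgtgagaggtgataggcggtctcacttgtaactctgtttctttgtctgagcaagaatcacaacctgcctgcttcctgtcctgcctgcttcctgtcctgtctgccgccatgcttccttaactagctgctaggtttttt
Nlrp1b promoter, chr11:71230684-71230983 (minus strand): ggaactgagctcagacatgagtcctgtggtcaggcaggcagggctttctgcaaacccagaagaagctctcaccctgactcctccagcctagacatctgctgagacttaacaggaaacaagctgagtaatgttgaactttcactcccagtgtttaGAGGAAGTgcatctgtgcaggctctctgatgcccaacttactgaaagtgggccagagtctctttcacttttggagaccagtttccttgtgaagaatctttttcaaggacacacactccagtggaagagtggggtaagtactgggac
Tlr1 promoter, chr5:64933509-64933808 (minus strand): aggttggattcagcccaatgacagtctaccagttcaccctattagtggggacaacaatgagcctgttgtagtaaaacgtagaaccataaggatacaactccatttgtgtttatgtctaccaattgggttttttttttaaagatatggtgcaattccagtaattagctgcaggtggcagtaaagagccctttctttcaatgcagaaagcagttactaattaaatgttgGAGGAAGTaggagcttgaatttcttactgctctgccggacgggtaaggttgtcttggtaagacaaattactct
Nlrp3 promoter, chr11:59541319-59541618 (plus strand): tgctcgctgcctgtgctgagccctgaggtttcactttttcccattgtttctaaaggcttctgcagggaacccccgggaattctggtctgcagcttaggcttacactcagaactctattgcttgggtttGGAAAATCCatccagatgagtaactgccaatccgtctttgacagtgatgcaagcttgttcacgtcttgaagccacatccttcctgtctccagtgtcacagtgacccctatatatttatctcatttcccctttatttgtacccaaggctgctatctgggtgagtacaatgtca
Myd88 promoter, chr9:119339969-119340268 (minus strand): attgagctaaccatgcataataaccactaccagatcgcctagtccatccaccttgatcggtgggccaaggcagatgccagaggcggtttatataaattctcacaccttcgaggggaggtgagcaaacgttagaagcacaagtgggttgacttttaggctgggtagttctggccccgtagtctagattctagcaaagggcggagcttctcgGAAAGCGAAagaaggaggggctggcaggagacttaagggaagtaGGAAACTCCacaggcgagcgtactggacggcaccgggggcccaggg
Counted from the annotated start, the PU.1 letters began at position -113 in the Aim2 window, -96 in that of Nlrp1b and -23 in that of Tlr1. The NF-kB letters began at position -122 in the Nlrp3 window and at position 5 in that of Myd88. Of the other genes with the PU.1 letters, Pycard, where they began at position -44, was higher by 0.52 in HF12 than in C12 cells and not called at 24 weeks, and Tlr9, where they began at position 11, was called in none of the comparisons.

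After 24 weeks of feeding, 14 of the 32 tested genes were higher and 3 were lower in HF24 than in C24 cells, with a median log2 change of 0.28. Over all genes or features tested, 15.7% were called higher and 18.8% lower, with a median of 0.03. One of the 14, Tlr8, was not well above background in either group. At 12 weeks, 18 of the 32 genes were higher and 2 were lower in HF12 than in C12 cells, with a median log2 change of 0.55, where 13.5% of all genes or features were called higher and 17.7% lower, with a median of -0.04.

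Some of these genes entered the test only through the group in which they were high. Of the 33 matched genes, 25 were well above background on all 8 arrays. With the test limited to genes or features well above background everywhere, 10 of the 25 were higher and 3 lower by diet at 24 weeks, against 20.6% and 19.7% of all features in that fit. At 12 weeks 14 were higher and 2 lower, against 16.5% and 21.3%. The 2 genes lower at 12 weeks were Nod1 and Irak3, of which Irak3 was not called without HF12 replicate 2 or without C12 replicate 2, which leaves 1. The 3 genes lower at 24 weeks were Ly96, Irak3 and Clec4n.

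With time on the high-fat diet, 11 of the 32 genes were higher and 12 lower in HF24 than in HF12 cells, against 22.7% and 24.1% of all genes or features. Some of these calls rested on single arrays. Without HF24 replicate 1, fewer genes of the list were called higher, and so were fewer of all genes or features. On chow, 19 genes were higher and 3 lower in C24 than in C12 cells, against 23.4% and 22.4% of all genes or features, and 18 were higher without Tlr8, which was not well above background in either chow group. The median log2 change was -0.10 on the high-fat diet and 0.48 on chow. The 3 genes lower on chow (Tlr4, Nod1 and Pycard) were down to 0 without C24 replicate 2 or without C12 replicate 1, and also when only the 4 chow arrays were fitted.

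The difference between the diet effects, the effect at 24 weeks minus that at 12 weeks, was tested in the same fit. It was called negative for 17 of the 32 genes and positive for 3, against 15.8% and 14.5% of all genes or features. Without Tlr8, Tlr12, Nlrp1b and Mefv, for which 1 or more groups had no level above background, it was negative for 14 of 28 and positive for 2. Of the 18 genes higher by diet at 12 weeks, 15 had a lower diet effect at 24 weeks and 3 (Tlr2, Irak4 and Gsdmd) were not called for this difference. A second Gsdmd probe was called (-0.35 ± 0.09, adjusted p = 0.0299), and second probes of Mefv (-0.35 ± 0.19, adjusted p = 0.224) and Ly96 (-0.22 ± 0.10, adjusted p = 0.165) were not. The 18 were picked by their 12-week change, which this difference subtracts, so negative values were favoured in advance. Neither this count nor the next has a share over all features beside it. Of the 18, 12 were also among the 14 higher at 24 weeks, 5 were not called there and 1, Clec4n, was lower. HF12 had the highest mean of the 4 groups for 16 of the 32 genes, against 18.02% of all genes or features. C12 had the lowest for 21 of the 32 (65.6%), against 28.6%. These counts include genes not above background in every group. Among the 16 is Tlr8, which entered the test only through HF12 cells. Among the 21 are Tlr8, Tlr12, Nlrp1b and Mefv, whose C12 readings were not well above background.

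**Figure D1:**
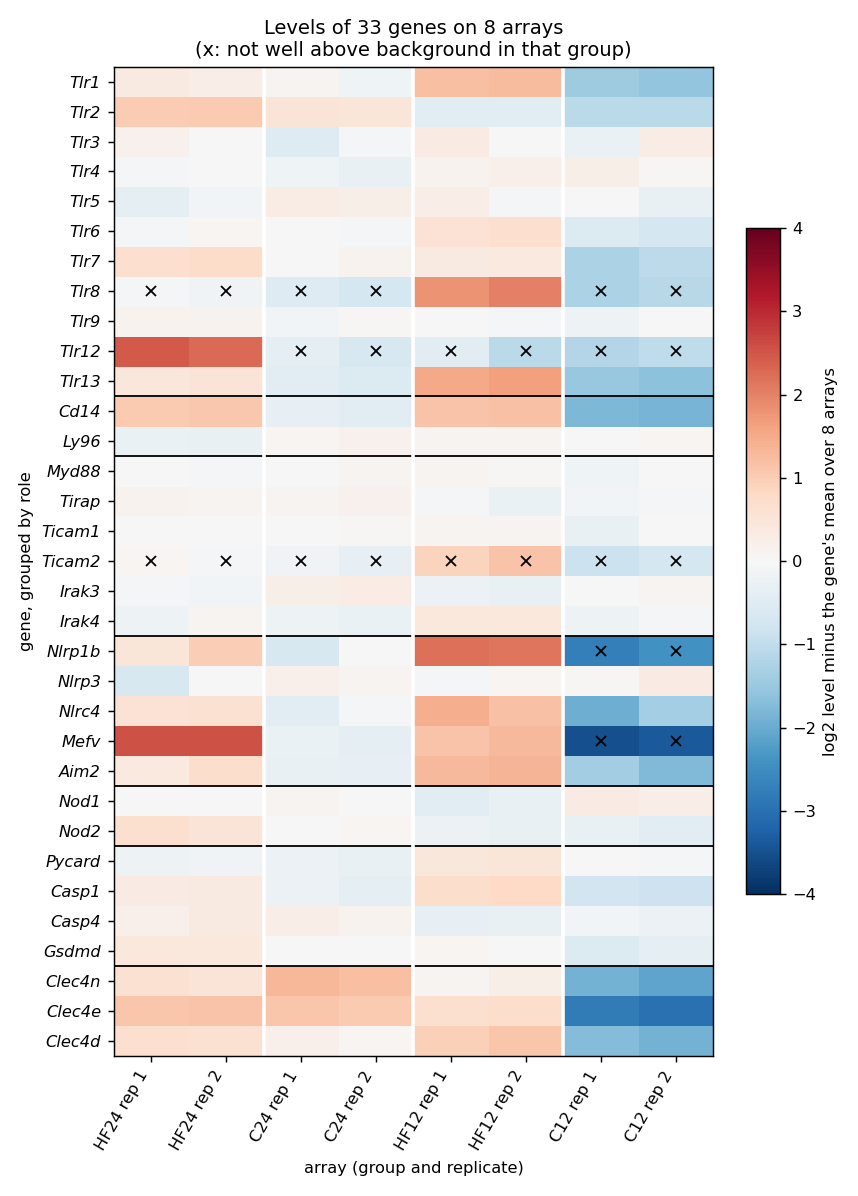
Level of each matched gene on each of the 8 arrays (columns, HF24, C24, HF12 and C12 with 2 arrays each), drawn as log2 level minus the gene's mean over the arrays, with genes in rows by role. A cross marks groups in which no array was well above background. The C12 columns hold the lowest mean for 21 of the 32 tested genes, and the HF12 columns the highest for 16, with readings not well above background counted too.

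Markers of macrophages also differed between the groups. All 18 macrophage markers were well above background on at least 1 array. Their summed level, on a linear scale where 1 is an array's 75th percentile, was 326 to 333 on the HF24 arrays and 165 to 172 on the C24 arrays, and 437 to 445 on the HF12 arrays and 76.4 to 77.7 on the C12 arrays. By diet, 13 of the 18 were higher and 1 lower at 24 weeks, and 17 were higher and 0 lower at 12 weeks. Between HF24 and HF12 cells, 3 markers rose and 13 fell, and between C24 and C12 cells, 16 rose and 0 fell. Ptprc, the pan-leukocyte antigen CD45, was higher by 1.00 ± 0.09 (log2 change ± SE) in HF24 than in C24 cells and by 3.77 ± 0.09 in HF12 than in C12 cells. Adgre1, the macrophage antigen F4/80, was higher by 0.99 ± 0.09 and by 3.67 ± 0.09 in the same comparisons. Of 15 stromal markers, 13 were matched to a probe (not Ly6a and Col1a1) and were measured, with a summed level of 1169 to 1220 (HF24), 1240 to 1258 (C24), 1115 to 1140 (HF12) and 1248 to 1258 (C12). The mature adipocyte markers summed to 102 to 105 (HF24), 140 to 142 (C24), 236.6 to 251.1 (HF12) and 994 to 1005 (C12), and those of mast cells to 35.4 to 37.1, 30.4 to 33.1, 4.15 to 4.21 and 4.93 to 5.32 in the same order. The 9 endothelial markers summed to 37.5 to 38.8 (HF24), 25.7 to 26.5 (C24), 13.5 to 13.6 (HF12) and 14.6 (C12). By diet, 7 of them were higher and 0 lower at 24 weeks, and 1 was higher and 4 lower at 12 weeks. With time, 8 rose on each diet, and 1 fell on chow. Of 7 tested neutrophil markers, 5 were higher and 1 lower by diet at 24 weeks, and 3 and 1 at 12 weeks, while Cxcr2 and Retnlg were on no array. The summed level of the 9 matched neutrophil markers went the other way and was lower with the high-fat diet at both times. It was 65.9 to 70.1 (HF24), 89.2 to 95.0 (C24), 84.9 to 89.4 (HF12) and 97.5 to 101.2 (C12). Of the lymphocyte markers, Ms4a1, Ncr1 and Cd8a were on no array, and the 12 listed summed to 2.22 to 3.25 over all arrays. The part of these other cell types' markers in the results below was not tested, and in bulk RNA a larger number of cells of a type and more RNA per cell cannot be told apart.

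Among the receptors of the cell surface, Tlr1 and Tlr6, which each pair with TLR2 to bind bacterial lipopeptides, followed the general pattern. Tlr1 levels were -0.35 and -0.44 on the HF24 arrays and -0.62 and -0.89 on the C24 arrays, against 0.48 and 0.55 on the HF12 arrays and -2.14 and -2.30 on the C12 arrays. The HF12 arrays were thus the highest and the C12 arrays the lowest, and no 2 groups overlapped. Tlr1 was higher by 2.73 ± 0.11 in HF12 than in C12 cells (adjusted p = 2.02e-05), while the change of 0.36 ± 0.11 in HF24 against C24 cells had an adjusted p of 0.051. A second Tlr1 probe gave 0.54 ± 0.09 at 24 weeks (adjusted p = 0.00588). The diet effect on Tlr1 was smaller at 24 than at 12 weeks by -2.37 ± 0.16. Tlr6 was higher by 1.25 ± 0.08 in HF12 than in C12 cells (adjusted p = 0.000114), with 0.05 ± 0.08 in HF24 against C24 cells (adjusted p = 0.664). With time it fell by 0.59 on the high-fat diet and rose by 0.61 on chow.

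Tlr2, their shared partner, behaved differently. Its levels were 2.56 and 2.57 in HF24 cells and 2.04 and 2.02 in C24 cells, against 1.06 and 1.07 in HF12 cells and 0.46 and 0.45 in C12 cells. The 4 groups were separate, and both 24-week groups lay above both 12-week groups. Tlr2 was higher with diet by 0.53 ± 0.05 at 24 weeks (adjusted p = 0.000762) and by 0.61 ± 0.05 at 12 weeks (adjusted p = 0.00036). The difference between these effects, -0.08 ± 0.07, was not called (adjusted p = 0.446). With time it rose by 1.498 ± 0.05 on the high-fat diet and 1.58 ± 0.05 on chow.

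Tlr4, the receptor of bacterial lipopolysaccharide (LPS), was not called for diet. It averaged 0.61 ± 0.05 in HF24 cells and 0.44 ± 0.09 in C24 cells, and 0.83 ± 0.05 in HF12 cells and 0.81 ± 0.14 in C12 cells (mean level ± SD, n = 2 each). The diet changes were 0.18 ± 0.09 at 24 weeks (adjusted p = 0.184) and 0.03 ± 0.09 at 12 weeks (adjusted p = 0.846). On chow it was lower by -0.37 ± 0.09 in C24 than in C12 cells (adjusted p = 0.0183), a call that was lost without C24 replicate 2 or C12 replicate 1, with adjusted p up to 0.0885 over the alternatives.

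The 2 proteins that serve TLR4 moved apart from the receptor and from each other. Cd14, the co-receptor that hands LPS to TLR4, had levels of 3.498 and 3.533 in HF24 cells and 2.13 and 2.03 in C24 cells, against 3.59 and 3.61 in HF12 cells and 0.65 and 0.61 in C12 cells. All high-fat arrays were above all chow arrays, and the C12 arrays were the lowest. Cd14 was higher with diet by 1.43 ± 0.06 at 24 weeks (2.70-fold, adjusted p = 8.51e-05) and by 2.97 ± 0.06 at 12 weeks (7.84-fold, adjusted p = 1.92e-06). It rose by 1.45 ± 0.06 with time on chow, and the change of -0.09 ± 0.06 with time on the high-fat diet was not called (adjusted p = 0.281). Ly96, which encodes the LPS-binding partner of TLR4, had levels of 4.54 and 4.51 in HF24 cells and 4.88 and 4.98 in C24 cells, against 4.92 and 4.91 in HF12 cells and 4.81 and 4.90 in C12 cells. Only the HF24 arrays stood apart, below the rest. Ly96 was lower by -0.41 ± 0.06 in HF24 than in C24 cells (adjusted p = 0.00508), and a second probe gave -0.23 ± 0.07 (adjusted p = 0.0573).

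Tlr5, the flagellin receptor, was called in no comparison of 2 groups. Its mean level was -4.72 ± 0.19 in HF24 cells and -4.21 ± 0.04 in C24 cells, and -4.35 ± 0.22 in HF12 cells and -4.62 ± 0.22 in C12 cells (SD, n = 2 each), and 1 of the 2 HF24 arrays was not well above background. The difference between its diet effects, -0.78 ± 0.23, was at an adjusted p of 0.0468 and was lost in 10 of 15 alternatives, with adjusted p up to 0.272.

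**Figure D2:**
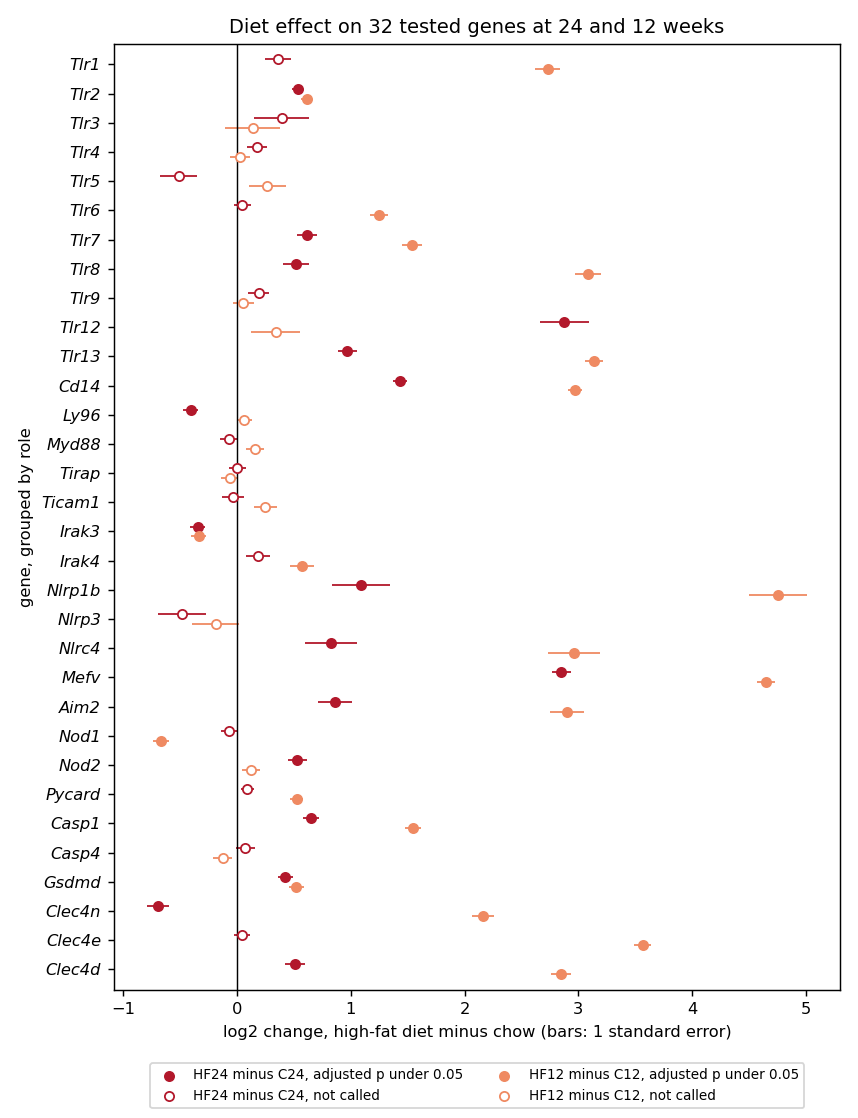
Log2 change with high-fat diet for the 32 tested genes, in rows by role, at 24 weeks (dark red, HF24 minus C24) and at 12 weeks (orange, HF12 minus C12), with bars of 1 standard error and filled points for an adjusted p under 0.05. The 12-week points reach 4.76 (Nlrp1b), and the highest 24-week points are those of Tlr12 (2.88) and Mefv (2.85). Fitted changes of Tlr8, Tlr12, Nlrp1b and Mefv that involve a group below background are not measured folds.

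Of the endosomal receptors of nucleic acids, Tlr13, which binds bacterial ribosomal RNA in mice, had the largest diet change at 12 weeks among the TLRs measured in both groups. Its levels were 2.89 and 2.95 in HF24 cells and 2.01 and 1.89 in C24 cells, against 3.94 and 4.06 in HF12 cells and 0.93 and 0.79 in C12 cells. The groups did not overlap, and both high-fat groups were above both chow groups. Tlr13 was higher by 0.97 ± 0.08 at 24 weeks (adjusted p = 0.000594) and by 3.14 ± 0.08 at 12 weeks (8.81-fold, adjusted p = 3.82e-06). With time, it fell by 1.08 on the high-fat diet and rose by 1.09 ± 0.08 on chow.

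Tlr7, a receptor of single-stranded RNA, had levels of 1.11 and 1.15 in HF24 cells and 0.45 and 0.57 in C24 cells, against 0.78 and 0.83 in HF12 cells and -0.84 and -0.64 in C12 cells. It was higher with diet by 0.62 ± 0.09 at 24 weeks (adjusted p = 0.00336) and by 1.54 ± 0.09 at 12 weeks (adjusted p = 7.79e-05). Its direction with time on the high-fat diet depended on the probe: the probe with the highest mean was higher in HF24 than in HF12 cells by 0.32 ± 0.09 (adjusted p = 0.0253), and another was lower by -0.27 ± 0.08 (adjusted p = 0.0413). The call of the first probe was also lost without any one of the HF24 or HF12 arrays, with adjusted p up to 0.113.

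Tlr8, another receptor of single-stranded RNA, was well above background only in HF12 cells, where its levels were -4.66 and -4.42. The HF24 arrays read -6.52 and -6.58, the C24 arrays -6.97 and -7.16, and the C12 arrays -7.70 and -7.55, none of them well above background. Where one group is not above background on any array, its value is only a bound, taken per array as the higher of its own signal and the lowest signal well above background. An adjusted p printed beside such a bound tests the fitted change, which uses the reading below background, and not the bound itself. Tlr8 entered the test only through HF12 cells, so no adjusted p is given for its bounds. With such bounds, Tlr8 was at least 2.10-fold higher in HF12 than in C12 cells and at least 1.20-fold lower in HF24 than in HF12 cells. With normexp background correction and quantile normalization, in which an offset of 50 intensity units shrinks the changes of dim probes by construction, these log2 changes were 0.67 and -0.50, so the bounds hold for the processed signal only. Its calls for diet at 24 weeks and for time on chow lay between groups without a measured level and are given no fold.

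Tlr12, an endosomal receptor of a parasite profilin in mice, was the reverse case and was well above background only in HF24 cells. Its levels were -4.38 and -4.58 in HF24 cells, against -7.24 and -7.47 in C24 cells, -7.26 and -7.90 in HF12 cells and -8.00 and -7.85 in C12 cells. It entered the test only through HF24 cells, so no adjusted p is given for its bounds. Tlr12 was at least 1.47-fold higher in HF24 than in C24 cells and at least 2.33-fold higher than in HF12 cells. With the normexp setting these log2 changes were 0.74 and 0.78. It was the only TLR called with a positive difference between the diet effects (2.53 ± 0.30). In that difference 3 of the 4 groups had no level above background, so it is no measured size.

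Tlr3, the receptor of double-stranded RNA, and Tlr9, the receptor of unmethylated CpG DNA, were called in none of the 5 comparisons. The largest change of Tlr3 was 0.39 ± 0.24, in HF24 against C24 cells (adjusted p = 0.254). Tlr9 levels lay within 2.48 to 2.83 on all arrays, and its largest change was 0.19 ± 0.09, in the same comparison (adjusted p = 0.159).

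Of the 5 tested adaptors and kinases, 0 were higher and 1 lower by diet at 24 weeks, and 1 was higher and 1 lower at 12 weeks. Over all genes or features, 15.7% were called higher and 18.8% lower at 24 weeks, and 13.5% and 17.7% at 12 weeks. Myd88, the adaptor of most TLRs, had levels of 2.73 and 2.68 in HF24 cells and 2.71 and 2.84 in C24 cells, against 2.82 and 2.76 in HF12 cells and 2.56 and 2.71 in C12 cells. The ranges of HF24 and C24 cells overlapped. Its diet changes were -0.07 ± 0.08 at 24 weeks (adjusted p = 0.53) and 0.16 ± 0.08 at 12 weeks (adjusted p = 0.178). Ticam1, which encodes TRIF, the adaptor of TLR3, was also called in none, with -0.03 ± 0.10 at 24 weeks and 0.25 ± 0.10 at 12 weeks (adjusted p = 0.813 and 0.116). Tirap, the bridging adaptor between MyD88 and the surface TLRs, was higher with time by 0.31 ± 0.07 on the high-fat diet and 0.24 ± 0.07 on chow (adjusted p = 0.0156 and 0.0373), and was not called for diet. The calls were lost in 4 (high-fat diet) and 9 (chow) of 17 alternatives, those without single arrays among them, with adjusted p up to 0.0771 and 0.144.

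The kinases of this step moved in opposite directions at 12 weeks. Irak4, the first kinase of the MyD88 complex, averaged -1.29 ± 0.20 in HF24 cells and -1.47 ± 0.05 in C24 cells, and -0.82 ± 0.02 in HF12 cells and -1.39 ± 0.09 in C12 cells (SD, n = 2 each). It was higher by 0.57 ± 0.11 in HF12 than in C12 cells (adjusted p = 0.00986), a call lost without HF12 replicate 1 or C12 replicate 1 (adjusted p up to 0.0591). Irak3, a kinase-like inhibitor of TLR signalling in macrophages, was lower with the high-fat diet at both times, by -0.34 ± 0.07 at 24 weeks (adjusted p = 0.011) and by -0.34 ± 0.07 at 12 weeks (adjusted p = 0.013). Each of these calls was lost without replicate 2 of either group compared, with adjusted p up to 0.062 at 24 weeks and 0.073 at 12 weeks, and of the 2 other Irak3 probes 1 was called at 24 weeks and 0 at 12 weeks.

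The inflammasome sensors were among the genes with the largest diet changes of the list. All but Nlrp3 of the 5 were higher with diet at both times. Mefv, which encodes the inflammasome sensor pyrin, had levels of -1.65 and -1.66 in HF24 cells and -4.46 and -4.55 in C24 cells, against -3.05 and -2.91 in HF12 cells and -7.70 and -7.56 in C12 cells, where it was not well above background. Both high-fat groups were above both chow groups, and HF24 was the highest. Mefv was higher by 2.85 ± 0.08 in HF24 than in C24 cells (7.22-fold, adjusted p = 4.78e-05), and at least 6.20-fold higher in HF12 than in C12 cells (adjusted p = 1.82e-06). It also rose with time, by 1.33 ± 0.08 on the high-fat diet (adjusted p = 0.000122) and at least 2.16-fold on chow (adjusted p = 6.06e-06). A second Mefv probe gave smaller changes, 0.64 ± 0.13 with diet at 24 weeks and 0.99 ± 0.13 at 12 weeks (adjusted p = 0.015 and 0.00298), and 0.10 ± 0.13 with time on the high-fat diet, which was not called (adjusted p = 0.573), and 0.45 ± 0.13 on chow (adjusted p = 0.0355). With the normexp setting the diet changes of the first probe were 1.78 at 24 weeks and 1.22 at 12 weeks, and the change on chow 0.45. These bounds too thus hold for the processed signal only. They also hold on the first probe only, since the second gave changes below them on that signal. The difference between the diet effects on Mefv, -1.80 ± 0.11, rests on the C12 value below background: with another background correction and quantile normalization it was 0.56 (adjusted p = 0.00174), the opposite direction.

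Nlrp1b, a sensor activated by the protease of anthrax lethal toxin in mice, was likewise below background in C12 cells. Its levels were -3.44 and -2.95 in HF24 cells and -4.59 and -3.97 in C24 cells, against -1.75 and -1.79 in HF12 cells and -6.69 and -6.36 in C12 cells. It was at least 14.4-fold higher in HF12 than in C12 cells (adjusted p = 6.4e-05), while the log2 change was 2.03 with the normexp setting and 2.11 ± 0.14 on a second probe. At 24 weeks the change was 1.09 ± 0.26 (adjusted p = 0.0218), a call lost without HF24 replicate 2 or C24 replicate 1. The second probe gave -0.10 ± 0.14 at 24 weeks and made no call. That probe was well above background on 2 arrays only, so 1 or more groups in each comparison had no level above background. Its values are thus no measured sizes, and its missing call at 24 weeks cannot test that of the first probe. Nlrp1a is a close paralog, and how far its RNA binds these probes was not tested.

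Aim2, the sensor of cytosolic double-stranded DNA, had levels of -2.89 and -2.60 in HF24 cells and -3.60 and -3.61 in C24 cells, against -2.0 and -1.9 in HF12 cells and -4.67 and -5.05 in C12 cells. The HF12 arrays were the highest and the C12 arrays the lowest. Aim2 was higher by 0.86 ± 0.15 at 24 weeks (adjusted p = 0.00727) and by 2.90 ± 0.15 at 12 weeks (7.47-fold, adjusted p = 5.29e-05). The 12-week change was 2.24 ± 0.15 on a second probe and 1.53 with the normexp setting. Nlrc4, which is activated by NAIP proteins bound to flagellin or secretion needles, followed the same order, with changes of 0.83 ± 0.23 at 24 weeks (adjusted p = 0.0353) and 2.96 ± 0.23 at 12 weeks (adjusted p = 0.000284). With the normexp setting its 12-week change was 1.41. Its 24-week call was lost without any one of the HF24 arrays, the HF12 arrays or C24 replicate 1 (adjusted p up to 0.148), and 1 of the 2 C12 arrays was not well above background.

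Nlrp3, the sensor of potassium efflux and of many sterile signals, was the exception among the sensors. Its levels were -4.69 and -4.08 in HF24 cells and -3.87 and -3.93 in C24 cells, against -4.14 and -3.98 in HF12 cells and -4.02 and -3.73 in C12 cells. The groups lay close together, and 1 HF24 array was not well above background. The diet changes were -0.49 ± 0.21 at 24 weeks (adjusted p = 0.128) and -0.19 ± 0.21 at 12 weeks (adjusted p = 0.543), with no call for time.

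The macrophage markers stand beside these values: over the same comparisons, Cd68, a lysosomal antigen of macrophages, was higher by 0.73 ± 0.06 at 24 weeks and by 3.06 ± 0.06 at 12 weeks, and Csf1r, the receptor of the macrophage growth factor, by 1.01 ± 0.05 and by 1.88 ± 0.05. The median over the 18 macrophage markers was 0.98 at 24 weeks and 3.66 at 12 weeks. Their part in the sensor values was not tested.

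**Figure D3:**
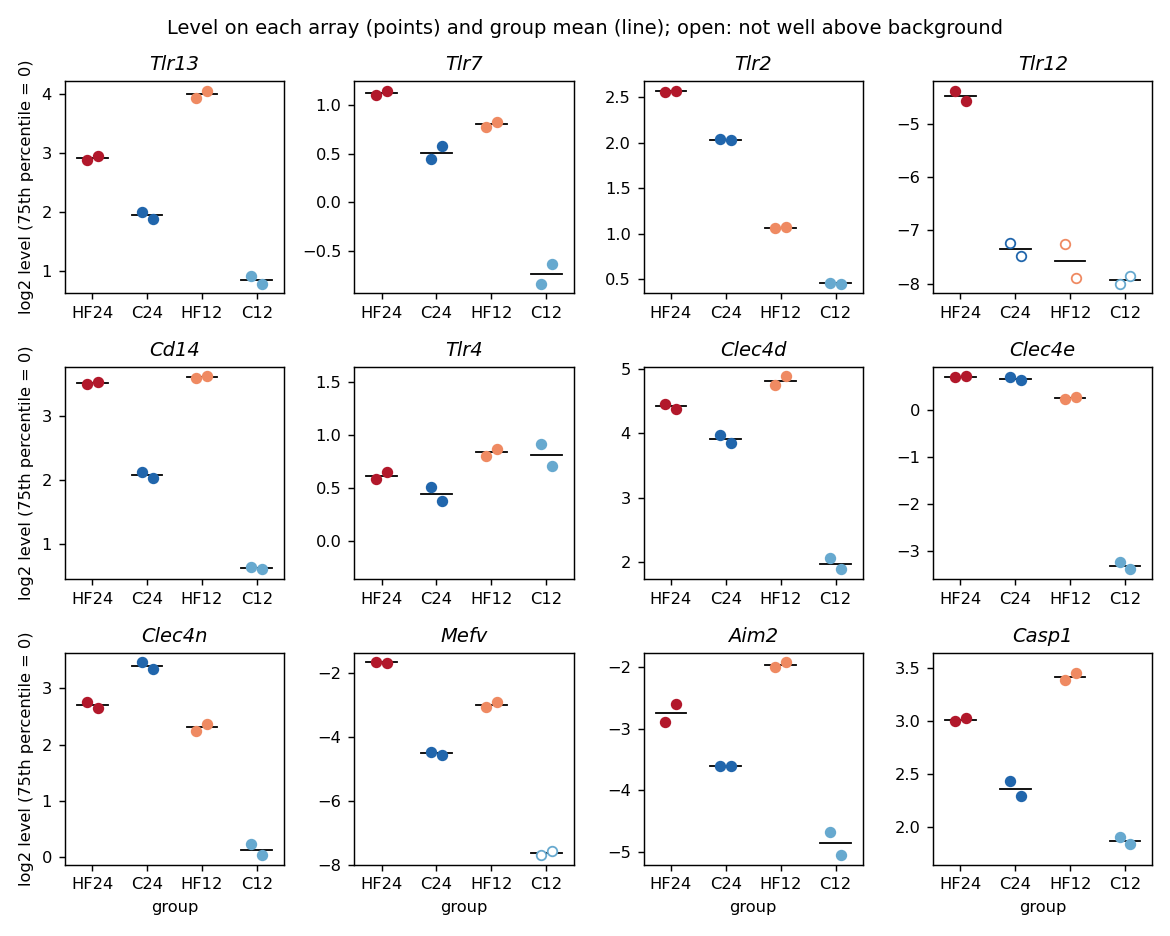
Level on each array (points) and group mean (lines) for 12 of the genes, with the groups HF24, C24, HF12 and C12 along each horizontal axis, log2 level on the vertical axis (0 is the array's 75th percentile, each gene on its own scale) and open points for groups not well above background. Tlr13, Cd14, Aim2 and Casp1 were above chow in both high-fat groups, Tlr2 was higher in both 24-week groups, and Tlr12 was above background in HF24 cells only.

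Downstream of the sensors, Casp1, the protease of the inflammasome, had levels of 2.999 and 3.033 in HF24 cells and 2.44 and 2.29 in C24 cells, against 3.39 and 3.46 in HF12 cells and 1.91 and 1.84 in C12 cells. The groups were separate and in the same order as for Aim2. Casp1 was higher by 0.65 ± 0.07 at 24 weeks (adjusted p = 0.00147) and by 1.55 ± 0.07 at 12 weeks (2.92-fold, adjusted p = 3.64e-05). Pycard, which encodes the adaptor ASC, was higher by 0.52 ± 0.06 in HF12 than in C12 cells (adjusted p = 0.00138), with 0.09 ± 0.06 at 24 weeks (adjusted p = 0.271). With time on the high-fat diet Pycard fell by 0.66. Gsdmd, the pore-forming substrate of caspase-1, had levels of 2.49 and 2.47 in HF24 cells and 2.05 and 2.06 in C24 cells, against 2.12 and 2.08 in HF12 cells and 1.502 and 1.657 in C12 cells. It was higher in all 4 comparisons of 2 groups, by 0.43 ± 0.07 with diet at 24 weeks, 0.52 ± 0.07 with diet at 12 weeks, 0.38 ± 0.07 with time on the high-fat diet and 0.48 ± 0.07 with time on chow (adjusted p = 0.00549, 0.00268, 0.00629 and 0.00249). Casp4, a caspase that binds cytosolic LPS, moved with time only, by 0.57 ± 0.08 on the high-fat diet and 0.37 ± 0.08 on chow (adjusted p = 0.00284 and 0.013). The chow call was lost without C24 replicate 1 or C12 replicate 2 (adjusted p up to 0.0636). Its diet changes, 0.07 ± 0.08 and -0.13 ± 0.08, were not called.

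The NOD receptors are cytosolic sensors of bacterial peptidoglycan. Nod1 levels were 3.83 and 3.79 in HF24 cells and 3.94 and 3.82 in C24 cells, against 3.39 and 3.51 in HF12 cells and 4.15 and 4.08 in C12 cells. The HF12 arrays were the lowest of the 8. Nod1 was lower by -0.67 ± 0.07 in HF12 than in C12 cells (adjusted p = 0.00127) and not called at 24 weeks (-0.07 ± 0.07, adjusted p = 0.484), so that the difference between the diet effects was positive, 0.60 ± 0.10 (adjusted p = 0.00811). Nod2 was higher by 0.53 ± 0.08 in HF24 than in C24 cells (adjusted p = 0.00484), with 0.12 ± 0.08 at 12 weeks (adjusted p = 0.306). It rose with time by 0.85 ± 0.08 on the high-fat diet and 0.44 ± 0.08 on chow. The difference between its diet effects, 0.41 ± 0.12, was at an adjusted p of 0.045 and was lost without any one array other than C12 replicate 2 (adjusted p up to 0.129).

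The C-type lectin receptors combined large diet changes at 12 weeks with large changes over time on chow. Clec4e, which encodes Mincle, a receptor of mycobacterial glycolipids and of a protein of dying cells, had levels of 0.69 and 0.71 in HF24 cells and 0.69 and 0.62 in C24 cells, against 0.22 and 0.26 in HF12 cells and -3.24 and -3.40 in C12 cells. Only the C12 arrays were low, and the 24-week groups were almost level. Clec4e was higher by 3.56 ± 0.07 in HF12 than in C12 cells (11.8-fold, adjusted p = 1.92e-06; 2.96 with the normexp setting), with 0.04 ± 0.07 in HF24 against C24 cells (adjusted p = 0.686). With time on chow it rose by 3.98 ± 0.07 (15.8-fold, adjusted p = 2e-06; 3.34 with the normexp setting), and on the high-fat diet by 0.45 ± 0.07 (adjusted p = 0.00386). Clec4d, the partner of Mincle in binding these glycolipids, had levels of 4.46 and 4.39 in HF24 cells and 3.97 and 3.86 in C24 cells, against 4.75 and 4.89 in HF12 cells and 2.06 and 1.88 in C12 cells. It was higher with diet at both times, by 0.51 ± 0.09 at 24 weeks (adjusted p = 0.00797) and 2.85 ± 0.09 at 12 weeks (adjusted p = 7.39e-06).

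Clec4n, which encodes dectin-2, a receptor of fungal mannans, changed sign with feeding time. Its levels were 2.75 and 2.66 in HF24 cells and 3.46 and 3.34 in C24 cells, against 2.24 and 2.37 in HF12 cells and 0.24 and 0.04 in C12 cells. At 24 weeks the chow arrays were the higher ones, and at 12 weeks the high-fat arrays. Clec4n was lower by -0.70 ± 0.10 in HF24 than in C24 cells (adjusted p = 0.00307) and higher by 2.17 ± 0.10 in HF12 than in C12 cells (4.49-fold, adjusted p = 2.85e-05). The difference between the diet effects was -2.86 ± 0.14 (adjusted p = 9.58e-05). It rose by 3.26 ± 0.10 with time on chow (9.59-fold, adjusted p = 8.73e-06). On chow, where 16 of the 18 macrophage markers were higher and 0 lower in C24 than in C12 cells, their median change was 1.83, and the 3 lectins changed by 1.95 to 3.98.

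The other genes of these pathways, none of them in the list of 34, were counted in the same fit, where 15.7% of all genes or features were called higher and 18.8% lower by diet at 24 weeks, and 13.5% and 17.7% at 12 weeks. Of 23 other genes of C-type lectin and ITAM signalling, 11 were higher and 2 lower by diet at 24 weeks, and 19 were higher and 0 lower at 12 weeks, with medians of 0.27 and 3.03. Ptpn6, the phosphatase SHP-1 that restrains ITAM signals, was higher by 1.44 ± 0.09 at 24 weeks and by 3.89 ± 0.09 at 12 weeks. Fcer1g, the ITAM chain of Mincle and dectin-2, was higher by 0.95 ± 0.10 and by 3.51 ± 0.10. Card9, the adaptor downstream of Syk, was higher by 0.32 ± 0.10 (adjusted p = 0.046) and by 0.94 ± 0.10 (adjusted p = 0.00096). Several of these genes, Fcer1g and Ptpn6 among them, are expressed by macrophages in general, and Mrc1 and Tyrobp stand in the macrophage marker list too.

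Of 43 other TLR signalling genes tested, 15 were higher and 4 lower by diet at 24 weeks, and 15 were higher and 5 lower at 12 weeks, with medians of 0.14 and 0.18. Those with the largest changes at 12 weeks included Btk, a kinase of myeloid and B cells (0.95 ± 0.09 at 24 weeks and 3.63 ± 0.09 at 12 weeks), and Irf8, a transcription factor of the myeloid lineage (1.43 ± 0.07 and 3.51 ± 0.07). Irf7, an interferon-induced transcription factor, was lower with diet at both times, by -1.23 ± 0.07 and -1.18 ± 0.07, as was Lbp, the LPS-binding protein, by -0.92 ± 0.08 and -0.97 ± 0.08. With time on the high-fat diet 15 of the 43 were called higher and 9 lower, against 22.7% and 24.1% of all genes or features. On chow 27 were called higher and 4 lower, against 23.4% and 22.4%. Nfkbia, an inhibitor of NF-kB, rose by 0.94 ± 0.06 on the high-fat diet and 0.84 ± 0.06 on chow, and was not called for diet (0.08 ± 0.06 and -0.02 ± 0.06). Nfkbiz, an atypical member of that inhibitor family, rose with time by 1.53 ± 0.07 and 1.87 ± 0.07, and was lower by -0.41 ± 0.07 with diet at 24 weeks. Tnfaip3, an inhibitory ubiquitin-editing enzyme, rose with time by 0.79 ± 0.08 and 1.85 ± 0.08, and was higher by 1.04 ± 0.08 with diet at 12 weeks.

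Of 36 other inflammasome and pyroptosis genes tested, 14 were higher and 6 lower by diet at 24 weeks, and 15 were higher and 11 lower at 12 weeks, with medians of 0.15 and 0.11. Il1b, the cytokine that caspase-1 matures, was not well above background in either 12-week group, and in HF24 cells on 1 of the 2 arrays only. It was at least 2.56-fold higher in HF24 than in HF12 cells and at least 2.24-fold higher in C24 than in C12 cells (adjusted p = 0.00043 and 0.001), and the diet change at 24 weeks was 0.10 ± 0.15 (adjusted p = 0.62). The 2.56-fold value and the diet change include the HF24 array that was not well above background, so that bound is not secure. Il18, the other cytokine of this pathway, was called in none of the comparisons, with adjusted p between 0.093 and 0.76. Il1rn, the receptor antagonist of interleukin-1, had diet effects of the same signs as Clec4n, -0.85 ± 0.09 at 24 weeks and 2.11 ± 0.09 at 12 weeks. With time on the high-fat diet the 2 genes differed, with -0.70 ± 0.09 for Il1rn and 0.40 ± 0.10 for Clec4n. Il1r2, the decoy receptor, was lower with diet at both times, by -1.77 ± 0.06 and -1.97 ± 0.06.

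Of 14 cytosolic RNA and DNA sensing genes, 3 were higher and 5 lower by diet at 24 weeks, against 15.7% and 18.8% of all genes or features. At 12 weeks 1 was higher and 7 lower, against 13.5% and 17.7%. Ifih1, the double-stranded RNA sensor MDA5, was lower by -0.23 ± 0.07 at 24 weeks and by -0.74 ± 0.07 at 12 weeks (adjusted p = 0.042 and 0.00058). Zbp1, a sensor of Z-form nucleic acids, was lower by -1.14 ± 0.07 at 12 weeks, and rose by 1.82 ± 0.07 with time on the high-fat diet. For this group the macrophage markers moved the other way by diet at 12 weeks, with 17 of 18 higher.

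**Figure D4:**
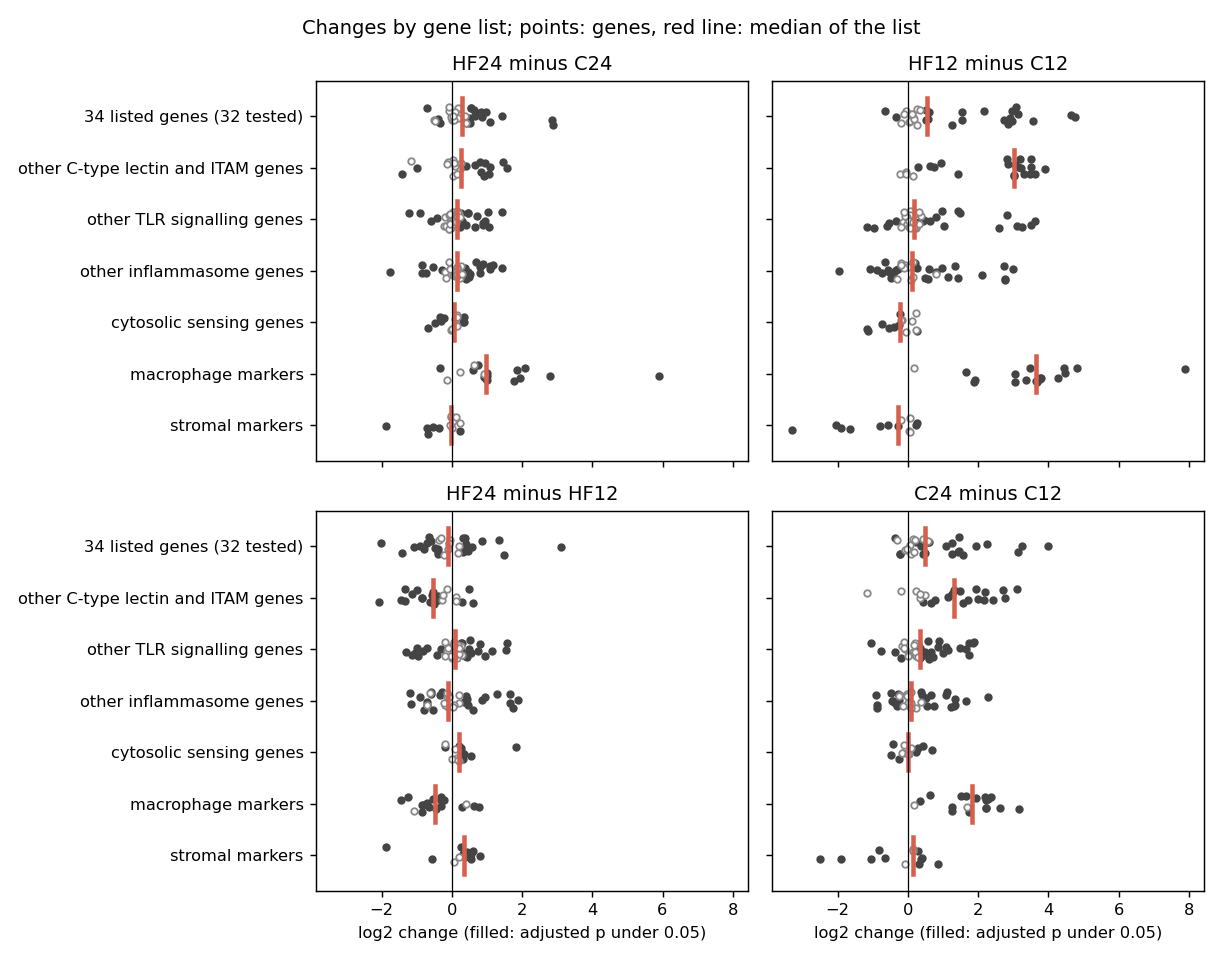
Log2 changes of the single genes (points, filled for an adjusted p under 0.05) and the median (red line) of the 34 listed genes, 4 lists of other pathway genes and the macrophage and stromal markers, with lists in rows and 1 panel for each comparison of 2 groups. In HF12 against C12 cells the medians of the C-type lectin and macrophage lists were 3.03 and 3.66, while that of the 32 tested genes was 0.55.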

How the data were processed

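Per the labels, total RNA of adherent fat-derived cells was labelled with Cy3 and hybridised to 8 Agilent mouse arrays with 1 colour. Per the file headers and the submitters' processing notes, the arrays were read with version 11.0.1.1 of Agilent Feature Extraction. The deposited scanner files hold spot intensity, and the processed intensity column was background-corrected by that software, per the file headers. The deposited series table holds log2 values of the same arrays: set against the scanner values of 38172 matched probes, each column had a slope of 1 and a constant offset, so it is log2 processed intensity minus 1 constant per array, with no centring of genes.

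From 56605 probes that are not controls, 367 with an outlier flag were left out. Replicate spots were averaged as log2 intensity, and the 75th percentile of the array was then taken off every probe. Accessions were matched to symbols in a RefSeq table (GRCm38.p6): 32830 of 56238 probes had 1 symbol and 23408 had none. Each gene was read from its probe with the highest mean and tested when its probe was well above background on both arrays of any group, which gave 29454 genes or features. The test was limma 3.58.1 in R 4.3.3, with the 4 group means as the model for the 8 arrays and 4 residual and 1.90 prior degrees of freedom. The fit was tested on simulated data. The normalization, background correction, dim-probe filter, set of probes fitted, variance model, arrays fitted and a replicate block were varied. Each array was left out in turn, and the deposited table was used in place of the scanner values. Replicate numbers did not pair the arrays: the correlation of replicate differences between groups was -0.08 to 0.17. No spot was saturated. No slide position term could be fitted.

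Every listed gene is named. Of the other lists, up to 6 called genes with the highest and up to 6 with the lowest change in a comparison could be named, plus Il1b, Il18, Nfkbia, Tnfaip3 and Card9. The genes, lists and tests were chosen with earlier results of these data known. Probe coordinates are not given because the headers name another build than the table, and protein sequences were not used here.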

Additional observations from a re-analysis of the deposited data

Results flagged for a closer look

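For 20 of the 32 tested genes the diet effect at 24 weeks differed from that at 12 weeks, in the test of the difference itself (limma, log2 change at 24 weeks minus log2 change at 12 weeks). It was positive for 3 and negative for 17, against 14.5% and 15.8% of all genes or features, and without Tlr8, Tlr12, Nlrp1b and Mefv it was called for 2 and 14 of 28. With 2 arrays per group, no group was large enough to look for single arrays that stand apart.

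Among the Toll-like receptors and their co-receptors the difference was -2.37 for Tlr1, -0.78 for Tlr5, -1.20 for Tlr6, -0.92 for Tlr7, -2.57 for Tlr8, 2.53 for Tlr12, -2.17 for Tlr13, -1.54 for Cd14 and -0.47 for Ly96. All but Tlr12 were negative, and Tlr8 and Tlr12 were each well above background in 1 group only, so that their values are no measured sizes. Among the sensors it was -3.67 for Nlrp1b, -2.14 for Nlrc4, -1.80 for Mefv and -2.04 for Aim2. Nlrp1b and Mefv were not above background in C12 cells, so theirs are no measured sizes either, and that of Mefv was 0.56 with normexp and quantile normalization. On second probes the differences of Mefv (-0.35 ± 0.19, adjusted p = 0.224) and Ly96 (-0.22 ± 0.10, adjusted p = 0.165) were not called. Among their adaptor and protease it was -0.43 for Pycard and -0.90 for Casp1. The NOD receptors were positive, with 0.60 for Nod1 and 0.41 for Nod2. The lectin receptors were among the largest, with -2.86 for Clec4n, -3.52 for Clec4e and -2.34 for Clec4d. Clec4n is the one of the 20 whose diet effects were called in opposite directions at the 2 times. The adjusted p-values ran between 4.6e-05 (Clec4e) and 0.0468 (Tlr5).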

How the results depend on the processing

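Over all settings other than leaving out an array, 1331 of 1373 values of single genes kept their direction and their side of the threshold, 26 lost their call, 15 gained one and 1 reversed: the difference between the diet effects on Mefv was 0.56 with normexp and quantile normalization, against -1.80. That setting adds an offset of 50 intensity units and shrank the 12-week diet changes of the dim genes, to 0.67 for Tlr8, 1.22 for Mefv, 1.41 for Nlrc4, 1.53 for Aim2 and 2.03 for Nlrp1b, each still called. Leaving out an array in turn, 1203 of 1280 kept theirs, 67 lost a call and 10 gained one. The deposited table and the test of every kept probe changed none of the 160 values each. The first holds the same intensities minus 1 constant per array. The second reads each gene from the same probe, so neither tests the choice of probe. Several kept probes were present for 12 genes. By diet, calls differed between these probes for Irak3, Ly96, Nlrp1b and Tlr1 at 24 weeks and for Irak3 at 12 weeks. With time, they differed for Mefv and Tlr7 (high-fat diet) and Tlr4 (chow). The second Nlrp1b probe was well above background on 2 arrays only, so its missing diet call at 24 weeks cannot test that of the first. The counts of genes called by leaving out an array were 12 to 14 higher and 2 to 3 lower by diet at 24 weeks, 17 to 19 higher and 1 to 2 lower by diet at 12 weeks, 7 to 11 higher and 9 to 12 lower with time on the high-fat diet, and 17 to 20 higher and 0 to 2 lower with time on chow. For the difference between the diet effects they were 2 to 3 positive and 16 to 18 negative. The count lower with time on chow was 0 when only the groups compared were fitted, which leaves fewer arrays to estimate the spread. A lone array left in a group is assumed to vary like the other groups. With the replicate number as a block, the counts were 15 higher and 3 lower by diet at 24 weeks, and 18 and 2 at 12 weeks. They were 11 and 11 with time on the high-fat diet, 18 and 2 with time on chow, and 2 and 16 for the difference. Over all 29454 genes or features, that fit called 3821 higher and 5187 lower by diet at 24 weeks, and 3490 and 4500 at 12 weeks. It called 5973 and 6702 with time on the high-fat diet, 6392 and 6165 on chow, and 3480 and 4123 for the difference. The replicate numbers share no known pairing, so the block is given here only. Without the filter on dim probes the median change of all genes moved to 0.11 (diet at 24 weeks), -0.08 (diet at 12 weeks), 0.13 (time on the high-fat diet) and 0.14 (time on chow). Calls of the list with time on the high-fat diet that rested on single arrays were also those of Irak4, Nod1, Nlrc4, Clec4n and Clec4d. That of Nlrc4 was also lost with quantile normalization, without the filter on dim probes and with the replicate block. On chow, calls of Nod1, Pycard and Tlr8 rested on single arrays, as did the 24-week diet call of Tlr8. Both Tlr8 calls were also lost with normexp and quantile normalization (limma, adjusted p = 0.483 on chow and 0.155 for diet). They were lost too when the variance model followed intensity, and the chow call also with quantile normalization alone. Signal over background limits Tlr8, Tlr12, Nlrp1b and Mefv in the groups named above.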

Other observations

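Of the 36 tested genes of the wider inflammasome list, 8 were called positive and 11 negative for the difference between the diet effects. The median was -0.13, and over all genes or features 14.5% were called positive and 15.8% negative. Described here are 4 of the positive ones. Gbp2, a guanylate-binding protein that coats intracellular pathogens, had a mean level of 3.11 in HF24 cells and 2.03 in C24 cells, and 1.22 in HF12 cells and 1.94 in C12 cells. It was higher by 1.08 ± 0.07 (log2 change ± SE) with diet at 24 weeks (limma, adjusted p = 0.00023) and lower by -0.73 ± 0.07 at 12 weeks (adjusted p = 0.00065). With time on the high-fat diet it rose by 1.89 ± 0.07. Gm12250, an interferon-inducible GTPase gene, was likewise higher at 24 weeks (1.08 ± 0.08) and lower at 12 weeks (-1.09 ± 0.08). Nlrc5, a regulator of MHC class I genes, was higher by 0.88 ± 0.13 in HF24 than in C24 cells and by 0.94 ± 0.13 in HF24 than in HF12 cells. Il18bp, the secreted binder of interleukin-18, was higher by 0.80 ± 0.05 and by 1.66 ± 0.05 in the same comparisons. For each of these 4 genes the difference between the diet effects was positive, 1.80 ± 0.10 for Gbp2, 2.16 ± 0.11 for Gm12250, 1.38 ± 0.18 for Nlrc5 and 1.13 ± 0.07 for Il18bp, where 17 of the 18 macrophage markers were called negative and 0 positive. Of 9 endothelial markers, 7 were higher by diet at 24 weeks, 4 lower and 1 higher at 12 weeks, 8 higher with time on the high-fat diet, and 6 positive for the difference between the diet effects. Their part in these values was not tested. Guanylate-binding proteins have close paralogs, whose RNA the probe of Gbp2 may also bind. Among the other TLR signalling genes, Sigirr, an inhibitory receptor of the interleukin-1 family, rose by 1.57 ± 0.06 with time on the high-fat diet, and Cd36, a lipid scavenger receptor, fell by 1.30. These genes were taken from the named genes of the lists after their values were seen.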
